A study of Mus musculus with 199 samples.

Results

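T cell receptor segment genes encode the variable (V) and constant (C) parts of the receptor by which a T cell recognises its target. The members were all genes of the deposited count table whose symbol, matched by Ensembl identifier, is that of a V or C gene of the alpha (TRA), beta (TRB), delta (TRD) or gamma (TRG) chain. The rule found 144 genes among the 37713 of the table. TRA gave 104 of them (1 C and 103 V), TRB 24 (2 C and 22 V), TRD 5 (all V) and TRG 11 (4 C and 7 V). V segments named for both TRA and TRD were counted in TRA. GENCODE M21 lists 184 genes under the rule, and the other 40, the delta constant gene Trdc among them, were not analysed here, so the delta chain is described from its V segments only. Of the 144 members, 134 had at least 1 count in the T cell libraries.

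The libraries were bulk RNA of CD3+ T cells sorted from the liver and the blood of male wild-type C57BL/6 mice from 1 colony, in a model of fatty liver disease with liver cancer. DEN (the liver carcinogen diethylnitrosamine) and ALIOS (a Western-type diet) were given to 4 of the 6 groups. Untreated DEN ALIOS gave 6 liver and 7 blood libraries, of which 1 liver and 2 blood libraries were labelled Vehicle. DEN ALIOS aPD1, with an antibody against the inhibitory receptor PD-1, gave 5 and 5. DEN ALIOS CXCR2i, with an inhibitor against CXCR2, a chemokine receptor that guides neutrophils, gave 6 and 6, and 4 of the 6 animals also carried the label of an aPD1 isotype antibody. DEN ALIOS CXCR2i aPD1, the combination, gave 5 and 5. The other groups were labelled PBS (8 and 8) and CXCR2i (6 and 6), with no DEN or ALIOS in their labels. The labels give no doses, times or ages, and the liver libraries are named for liver in the titles while the sorting protocol speaks of tumours. Each library came from 1 named animal, and 36 animals gave both sites.

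A conventional T cell joins 1 V segment to a constant gene in each chain and carries an alpha beta receptor, while gamma delta T cells carry a gamma and a delta chain. Each gamma constant gene is used mainly with V segments of its own cluster: Tcrg-C1 with Tcrg-V4, Tcrg-V5, Tcrg-V6 and Tcrg-V7, Tcrg-C2 with Trgv2, Tcrg-C3 with Tcrg-V3 and Tcrg-C4 with Tcrg-V1. Cells that pair Tcrg-V6 with the delta segment Trdv4 arise in fetal life, settle in tissues and make IL-17, a cytokine that draws neutrophils. Gamma genes are also rearranged and transcribed in many alpha beta T cells, so a gamma transcript alone does not count gamma delta T cells. A clone that has expanded raises the share of its own V segment. The usage of a V segment is described here as its share of the V counts of its locus in a library. The tests of usage instead took its share of all counts of the locus, V and C. Their values therefore also move with the constant genes. Genes other than the members have no locus and were tested by level in the same fits. The share of all genes called beside a usage test is thus one of levels, not a background rate of usage changes.

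Only reads that aligned to 1 place were counted, so reads from sequence that segments share can be lost. The first 300 bases of the coding sequences below, 5′ to 3′, spliced from the listed gene spans of GRCm38 by GENCODE M21, show the segments on which the results turn and a pair with no transcript sequence of their own. Capitals mark bases that lie in at least 1 stretch of 36 bases, the length of a read, found in no other gene's transcript. Tcrg-V6 (chr13:19190356-19190929, plus strand), Trdv4 (chr14:54074905-54075515, plus strand) and Trbv15 (chr6:41141188-41141658, plus strand) were unique in this sense over their whole length of 403, 345 and 347 bases. Trav11 (chr14:53519303-53519859, plus strand) and its duplicate Trav11d (chr14:52824357-52824912, plus strand), which code for the alpha chain of invariant natural killer T cells, had no such stretch over 343 and 342 bases.
Tcrg-V6: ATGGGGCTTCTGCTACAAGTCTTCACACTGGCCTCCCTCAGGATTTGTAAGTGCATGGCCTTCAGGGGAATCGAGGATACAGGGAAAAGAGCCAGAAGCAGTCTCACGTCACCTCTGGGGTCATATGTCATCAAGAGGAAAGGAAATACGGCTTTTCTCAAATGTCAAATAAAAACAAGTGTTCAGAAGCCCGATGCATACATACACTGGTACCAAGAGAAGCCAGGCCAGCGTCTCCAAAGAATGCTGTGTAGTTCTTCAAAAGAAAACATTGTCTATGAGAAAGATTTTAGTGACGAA
Trdv4: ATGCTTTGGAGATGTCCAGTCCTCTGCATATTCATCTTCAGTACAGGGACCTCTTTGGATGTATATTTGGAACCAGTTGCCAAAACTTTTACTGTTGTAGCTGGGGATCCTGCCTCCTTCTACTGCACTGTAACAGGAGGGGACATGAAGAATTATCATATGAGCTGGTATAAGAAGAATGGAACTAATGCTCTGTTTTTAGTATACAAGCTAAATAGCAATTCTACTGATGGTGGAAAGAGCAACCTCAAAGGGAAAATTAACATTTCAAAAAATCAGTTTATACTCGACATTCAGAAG
Trav11: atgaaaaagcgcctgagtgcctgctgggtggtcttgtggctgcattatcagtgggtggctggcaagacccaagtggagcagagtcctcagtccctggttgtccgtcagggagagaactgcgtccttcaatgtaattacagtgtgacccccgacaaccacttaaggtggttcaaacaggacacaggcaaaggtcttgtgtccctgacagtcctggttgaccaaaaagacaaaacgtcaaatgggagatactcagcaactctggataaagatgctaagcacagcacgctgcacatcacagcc
Trav11d: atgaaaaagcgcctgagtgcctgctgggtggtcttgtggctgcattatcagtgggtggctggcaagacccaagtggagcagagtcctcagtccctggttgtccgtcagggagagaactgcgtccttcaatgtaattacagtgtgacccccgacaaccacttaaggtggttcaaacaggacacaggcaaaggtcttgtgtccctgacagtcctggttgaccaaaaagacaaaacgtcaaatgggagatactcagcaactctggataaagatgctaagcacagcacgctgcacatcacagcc
Trbv15: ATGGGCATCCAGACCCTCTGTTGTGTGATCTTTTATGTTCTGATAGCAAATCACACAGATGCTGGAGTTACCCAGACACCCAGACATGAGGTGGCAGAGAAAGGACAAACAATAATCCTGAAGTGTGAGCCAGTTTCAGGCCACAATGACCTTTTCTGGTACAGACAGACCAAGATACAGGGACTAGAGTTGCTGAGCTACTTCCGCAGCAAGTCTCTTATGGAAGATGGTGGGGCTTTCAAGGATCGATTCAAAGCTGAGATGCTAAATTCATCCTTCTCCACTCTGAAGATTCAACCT

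The reach of the counting differed between loci. Of the 103 TRA V segments, 34 had no unique stretch of 36 bases and 39 had under 10% of their stretches unique. These 39 segments had a median of 3 counts over the 73 T cell libraries, against 291.5 counts for the 24 segments with at least 50% unique. Across TRA V segments, the unique share and the counts had a Spearman correlation of 0.79. For the 22 TRB V segments, 16 of them unique throughout, it was -0.12. These are correlations across genes, which are not independent. The 34 segments without a unique stretch still held 164 counts in all, which this measure does not account for. Trav11 and Trav11d were listed at 3 counts each over all 73 libraries. Usage within TRA therefore describes its more unique segments. The constant genes Trbc1 and Trbc2 had 35.6% of their stretches unique, so reads can be lost from both or split between them, and the levels of the gamma constant genes, which also share sequence, are uncertain in the same way. No label states the strand used for counting, so reads of Trdv5, which lies opposite to Trdc, cannot be told from antisense reads.

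**Figure D1:**
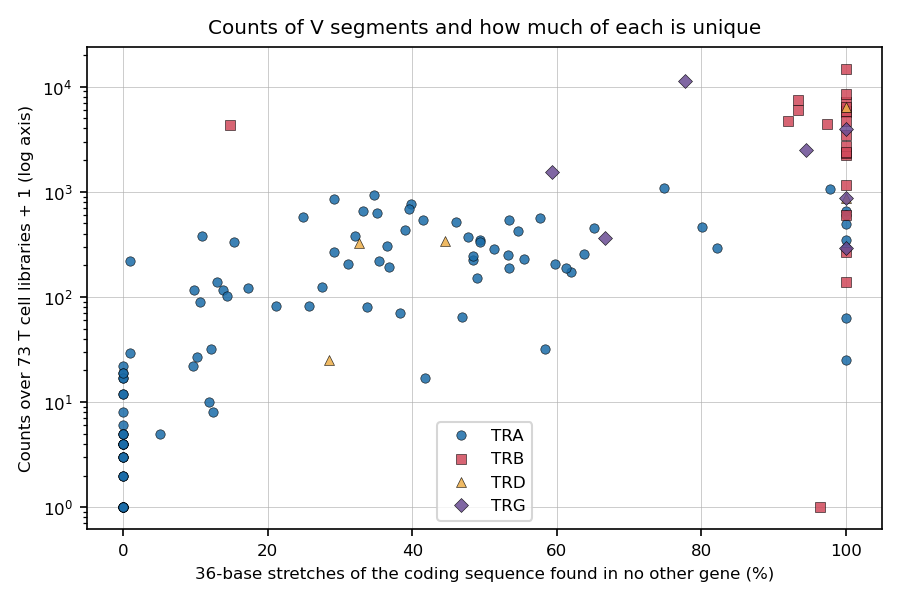
Counts of each V segment over the 73 T cell libraries plus 1 (log axis) against the percentage of its 36-base stretches found in no other gene, coloured by locus. TRA segments with little unique sequence lie at the bottom left, with a median of 3 counts for the 39 segments under 10%.

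T cell libraries held 337110 to 10755816 gene counts (median 6291781), of which 101 to 12637 (median 5308) fell on the members. Liver PBS replicates 3 and 4 were shallow, with under 1000000 gene counts. Scaled to 1000000 gene counts (CPM), the members together took 229 to 1546 CPM in T cells, against medians of 1.22 to 4.28 CPM in the 8 neutrophil groups and 2.56 to 3.19 CPM in the 3 whole-tissue groups of the series. The sort was for CD3, and Cd3e was counted in every T cell library. Codes at the start of the description labels, taken here as run codes, formed 5 run sets that overlap with the groups. Run sets A, B and D each joined different codes. Run set A held all untreated DEN ALIOS libraries and 2 of the 5 combination animals. Run set B held all aPD1 animals, 4 CXCR2i animals of the model and the other 3 combination animals. Run set C held 2 CXCR2i animals of the model and 3 PBS animals, D the other 5 PBS animals and E all CXCR2i animals outside the model. Red cell transcripts moved with run set A. Summed over 4 erythroid markers, the medians there were 2400 CPM in untreated blood, 8271 CPM in combination blood, 879 CPM in untreated liver and 2381 CPM in combination liver, against 0.842 to 259 CPM in the groups of the other run sets. In bulk libraries, fewer cells of a type and less RNA per cell cannot be told apart. The p-values below measure the spread between the animals of these groups, within run sets where run set was a term. For liver against blood they measure the spread between animals of the difference within each animal.

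TRB and TRA took most receptor counts. The median TRB share of a group was 36.8% to 59.7% and the median TRA share 30.0% to 38.3%. Trac, the alpha constant gene, made up 84.2% of TRA counts as a mean over groups. TRG counts had median shares from 4.24% in PBS blood to 27.3% in DEN ALIOS CXCR2i liver, and the TRD V segments from 0.0936% in untreated DEN ALIOS liver to 6.06% in CXCR2i liver. Trgv2 led the gamma V segments with a mean of 56.0% of gamma V counts over the 12 groups, followed by Tcrg-V4 (15.7%), Tcrg-V6 (13.3%) and Tcrg-V1 (8.82%). The delta V counts were led by Trdv4 (47.1%), Trdv1 (22.8%), Trdv2-2 (17.7%) and Trdv5 (11.1%). The group means of Tcrg-V6 ran from 0.89% to 43.8% of gamma V counts, and those of Trdv4 from 5.14% to 92.6% of delta V counts. The leading TRB segments were Trbv3 (15.3% of beta V counts), Trbv13-2 (8.09%), Trbv15 (7.93%), Trbv13-1 (7.83%) and Trbv2 (6.65%). Those of TRA were Trav14-1 (4.74%), Trav3-3 (4.57%), Trav19 (4.46%), Trav16 (3.81%) and Trav4-4-dv10 (3.55%).

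Tcrg-V6 and Trdv4, both unique throughout in the sequences above, were higher in mice given the CXCR2 inhibitor without aPD1 than in their comparison groups. These were aPD1 mice within run set B and PBS mice outside the model. Among mice given the inhibitor together with aPD1, levels were higher in run set B than in run set A. Their levels followed each other across libraries, with a Spearman correlation of 0.916 over all 73 libraries, 0.956 over the 36 of liver and 0.855 over the 37 of blood. These values describe libraries that share animals, groups and run sets. Among 78 members compared, Trdv4 was most like Tcrg-V6, followed by Tcrg-V5 (0.834), which in skin pairs with the same delta segment, Tcrg-C1 (0.81), Tcrg-V4 (0.582) and Trav1 (0.542). In liver T cells of CXCR2i mice outside the model, Tcrg-V6 was at 17.0 to 44.7 CPM (median 23.8) and Trdv4 at 22.8 to 83.3 CPM. In liver T cells of PBS mice, Tcrg-V6 was at 0 to 2.23 CPM and Trdv4 at 0 to 5.28 CPM, so the groups did not overlap. Outside the T cell libraries, Tcrg-V6 had 0 or 1 count in each of the 8 neutrophil groups. Trdv4 had 0 counts in each blood neutrophil group and 1 to 12 counts in those of liver. In liver tissue, large tumours and small tumours Trdv4 had 7, 25 and 17 counts and Tcrg-V6 0, 1 and 2. Among T cell libraries, Tcrg-V6 had no count in 7 libraries and Trdv4 in 12, where 0 counts allow up to 3 counts. In the 2 shallow liver PBS libraries this limit was 6.81 and 8.90 CPM, still below every liver CXCR2i value, and in liver PBS replicate 2 it was 0.279 CPM.

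Run set B allowed a comparison of treatments within the model and within a run set. It held no untreated animals, so in CXCR2i against aPD1 a rise under the inhibitor and a fall under aPD1 cannot be told apart. In liver T cells of run set B, the 4 CXCR2i animals had 40.2, 24.9, 8.39 and 163 CPM of Tcrg-V6. The 5 aPD1 animals had 4.35, 3.26, 1.25, 0.821 and 1.27 CPM of the same segment. Every CXCR2i value lay above every aPD1 value. Trdv4 was at 71.1, 33.9, 18.3 and 269 CPM in the CXCR2i animals and at 5.28, 3.65, 0.714, 1.5 and 3.18 CPM in the aPD1 animals, again without overlap. By edgeR's quasi-likelihood test, Trdv4 was higher by 5.13 ± 0.88 on the log2 scale (SE derived from the F statistic, adjusted p = 0.0081) and Tcrg-V6 by 4.79 ± 0.92 (adjusted p = 0.012). Their constant gene Tcrg-C1 rose by 3.49 ± 0.64 (adjusted p = 0.010). Tcrg-V4, a segment of circulating and tissue gamma delta T cells, rose by 2.53 ± 0.44 (adjusted p = 0.0070), and Trav1, the alpha segment of mucosal-associated invariant T cells, by 2.79 ± 0.72 (adjusted p = 0.038). The alpha beta constant genes fell, Trac by 0.76 ± 0.18, Trbc1 by 0.80 ± 0.22 and Trbc2 by 0.86 ± 0.18 (adjusted p = 0.026, 0.047 and 0.014). In all, 8 of the 52 members tested were called, 5 higher and 3 lower, or 15.4%, against 8.33% of all genes tested (5.3% higher and 3.03% lower). CXCR2i replicate 4 had the highest values, and without it Tcrg-V6 was higher by 3.51, Trdv4 by 3.88 and Tcrg-C1 by 2.43, with 7 members called and Trbc1 no longer among them. Over the 13 alternatives run, the call of Trbc1 was lost in 8 (adjusted p up to 0.12), that of Trav1 in 7 (up to 0.090) and that of Trac in 6 (up to 0.067). Without CXCR2i replicate 1 or 2, or aPD1 replicate 2 or 4, 5 members were called. Summed hepatocyte markers, of which 0 of 5 tested were called, lay at 5.43 to 1207 CPM in the CXCR2i and 66.6 to 561 CPM in the aPD1 animals. Of 5 endothelial markers tested Stab2 and Pecam1 were higher, at summed levels of 82.8 to 1360 CPM against 28.6 to 71.4 CPM, of 8 T cell markers Cd2 and Lck were lower, and of 5 NK cell markers Gzma was lower. Their part in the result was not tested.

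As shares of their locus, Tcrg-V6 rose by 3.79 ± 0.62, Tcrg-V4 by 2.21 ± 0.49 and Trav1 by 3.51 ± 0.75 in liver of run set B under CXCR2i against aPD1, while Trgv2 fell by 0.87 ± 0.17 (adjusted p = 0.0064, 0.021, 0.016 and 0.011 by edgeR, with 8.34% of all genes called). Trdv1 fell by 4.28 ± 0.94 in the same test, in which 1 aPD1 library, replicate 5, held 271 counts of it. In blood, Tcrg-V6 rose in share by 3.36 ± 0.44, Trdv4 by 2.25 ± 0.38, Tcrg-V4 by 1.38 ± 0.28 and the beta segment Trbv13-2 by 0.61 ± 0.14 (3.23% of all genes called). At both sites Tcrg-V6 was higher within the gamma locus as well as in CPM.

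The same segments moved in blood of run set B. The 4 CXCR2i animals had 19.7, 16.1, 3.72 and 7.23 CPM of Tcrg-V6, and the 5 aPD1 animals 0.851, 1.27, 1.38, 0.177 and 1.11 CPM. The 3 combination animals of run set B had 7.36, 7.77 and 14.0 CPM. Both groups given the inhibitor lay above every aPD1 animal. For Trdv4 the values were 30.5, 18.6, 8.97 and 16.6 CPM under CXCR2i, 12.8, 10.4 and 22.9 CPM under the combination and 1.02, 1.13, 1.23, 0.532 and 1.43 CPM under aPD1. CXCR2i against aPD1 gave 4 calls among 40 members tested (10.0%, all higher, against 3.21% of all genes, of which 1.43% higher and 1.78% lower): Trdv4 at 4.12 ± 0.37, Tcrg-V6 at 3.58 ± 0.50, Tcrg-C1 at 1.82 ± 0.29 and Tcrg-V4 at 1.57 ± 0.28 (adjusted p = 0.00012, 0.0021, 0.0042 and 0.0049 by edgeR). The combination against aPD1 also gave 4 calls among 40, all higher, where 0.203% of all genes were called higher and 0.0% lower. Trdv4 was higher by 3.75 ± 0.39 (adjusted p = 0.00082), Tcrg-V6 by 3.23 ± 0.53 (0.029), Tcrg-C1 by 1.72 ± 0.30 (0.040) and the beta segment Trbv29 by 1.55 ± 0.28 (0.040). The call of Trdv4 was kept under all 12 alternatives run for the combination in blood, that of Tcrg-V6 was lost in 9 of them, and leaving out any 1 of the 8 libraries left 1 or 2 members called. The aPD1 animals serve as the reference in both comparisons. Summed hepatocyte markers did not exceed 3.10 CPM in blood of run set B, and B cell, myeloid and platelet markers had 0 calls in both comparisons. Of 5 NK cell markers tested, Klrb1c was higher and Gzma and Eomes were lower for CXCR2i against aPD1, and 0 were called for the combination. Their part in the result was not tested.

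In liver, the combination was not separated from aPD1 within run set B by the test. The 3 combination animals had 4.93, 4.33 and 21.3 CPM of Tcrg-V6, of which 4.33 CPM lay below the highest aPD1 value of 4.35 CPM. Trdv4 was at 13.5, 7.22 and 35.3 CPM, above every aPD1 value. The log2 differences were 2.20 ± 0.94 for Tcrg-V6 and 2.69 ± 0.89 for Trdv4, with an adjusted p of 1 by edgeR for both. None of the 52 members and 0 of the 12990 genes tested passed (0.0%), while 8 members had an unadjusted p under 0.05, and DESeq2 called 1 member. The 2 combination animals of run set A had low levels at both sites: Tcrg-V6 was at 0.545 and 0.148 CPM in liver and at 0.825 and 0.361 CPM in blood. Untreated DEN ALIOS animals, all of run set A, had 0.138 to 0.587 CPM in liver and 0 to 0.885 CPM in blood. The combination animals of run set A thus lay below all 3 of run set B at both sites, under the same labelled treatment. For the untreated animals, treatment and run set cannot be told apart.

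**Figure D2:**
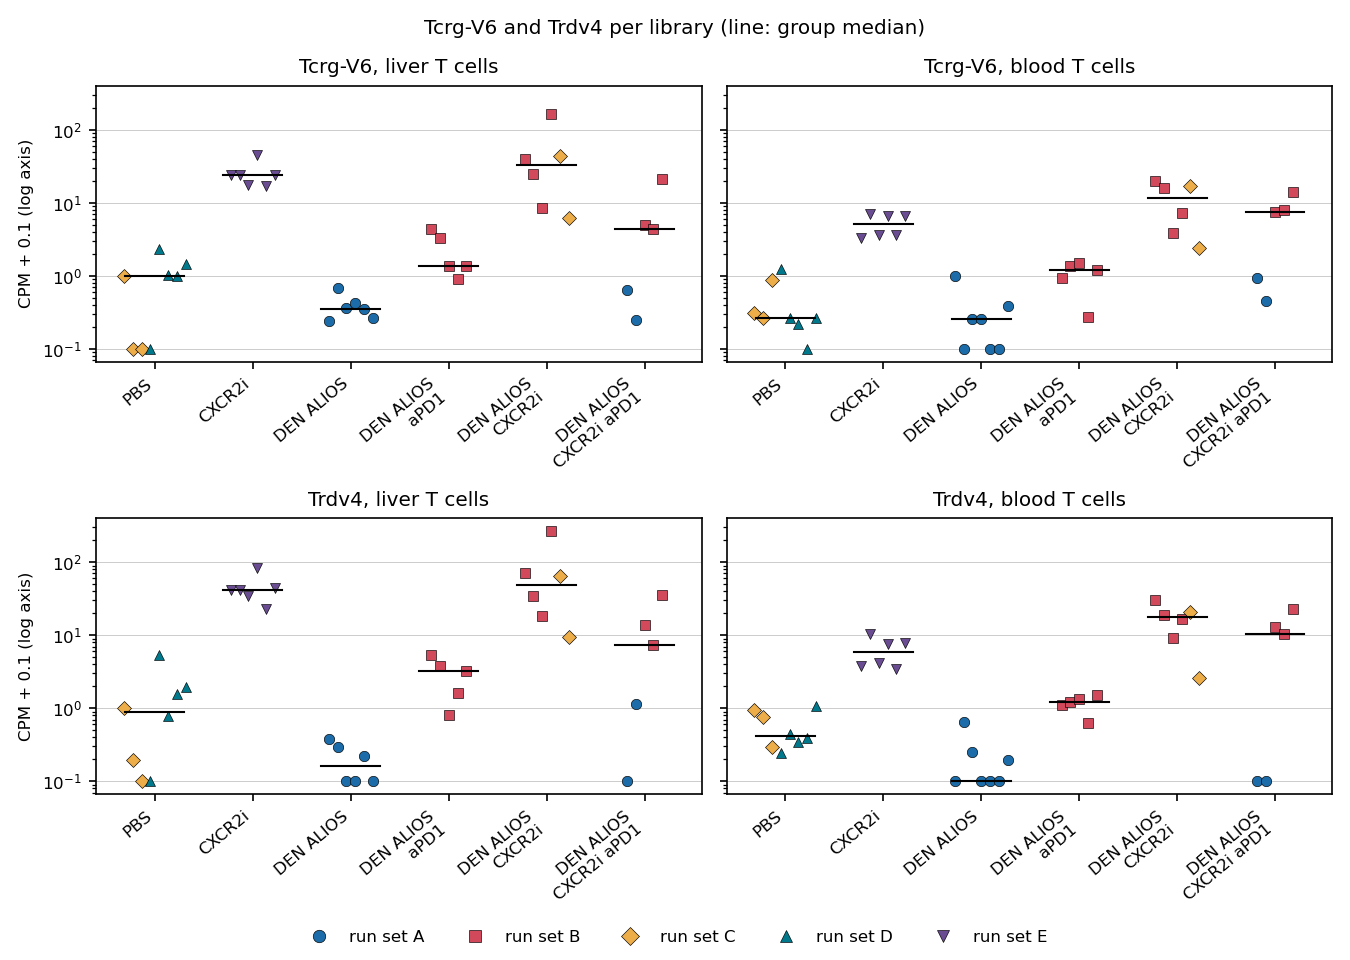
CPM plus 0.1 (log axis) of Tcrg-V6 and Trdv4 in each liver and blood T cell library by group, with colours for run sets and lines at group medians. In liver, CXCR2i libraries lie at 17.0 to 44.7 CPM of Tcrg-V6 and PBS libraries at 0 to 2.23 CPM, and combination libraries of run set A lie below those of run set B.

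Each treatment against untreated DEN ALIOS rested on a model with run set as a term, in which the untreated animals are tied to the others only through the combination. No member was called in liver under aPD1, CXCR2i or the combination, where 0.00769%, 0.669% and 0.169% of all genes were called, with 7, 10 and 3 members at an unadjusted p under 0.05. No member was called in blood either, at 0.0161%, 0.436% and 2.53% of all genes, with 4, 4 and 6 members at an unadjusted p under 0.05. DESeq2 called 2 members for CXCR2i in liver and 1 each for aPD1 and CXCR2i in blood. Without the run set term, edgeR called 5 members for CXCR2i in liver and, in blood, 3 for aPD1, 6 for CXCR2i and 3 for the combination. The shares of all genes above belong to the edgeR fits with the term, and those of the alternative fits are not reported here. For usage, Trav5-4 was higher in liver against untreated under CXCR2i (3.63 ± 0.79, adjusted p = 0.045) and under the combination (2.72 ± 0.51, adjusted p = 0.043), in fits that share the untreated animals. These were the only usage calls in the 6 comparisons, where 0.684% and 0.177% of all genes were called in those 2.

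Outside the model, CXCR2i against PBS gave 6 calls among 38 members tested at each site (15.8%), against 17.6% of all genes in liver (8.05% higher and 9.59% lower) and 11.6% in blood (7.07% higher and 4.54% lower). In liver, Trdv4 rose by 4.59 ± 0.44 (adjusted p = 3.7e-07 by edgeR), Tcrg-V6 by 4.53 ± 0.41 (1.1e-07) and Tcrg-C1 by 1.41 ± 0.31 (0.0035), while Trbc1, Trbv5 and Trav19 fell by 0.83, 1.66 and 2.49. The falls of Trav19 and Trbv5 rest on 2 PBS libraries, replicates 1 and 2, in which Trav19 took 19.2% and 29.6% of TRA V counts, against a group median of 5.65%. Without both, the log2 differences were -0.93 for Trav19 and -0.61 for Trbv5 (adjusted p = 0.32 and 0.36 by edgeR), and 4 members were called. In blood, Tcrg-V6 rose by 3.93 ± 0.47 (adjusted p = 7.5e-07), from 0 to 1.13 CPM in PBS animals to 3.20 to 7.04 CPM, and Trdv4 by 3.68 ± 0.38 (4.9e-08), from 0.141 to 0.978 CPM to 3.40 to 10.2 CPM. Tcrg-C1, Tcrg-V4 and Tcrg-C4 rose by 1.36, 0.72 and 0.61 there, and Trbv3 fell by 0.51. Within the gamma locus of liver, the share of Tcrg-V6 rose by 3.76 ± 0.41 (adjusted p = 1.0e-06) while those of Trgv2 (-0.75 ± 0.18) and Tcrg-V4 (-1.11 ± 0.36) fell. All CXCR2i libraries are of run set E and all PBS libraries of run sets C and D, so treatment and run set cannot be told apart here. PBS libraries were low in both of their run sets, at 0 to 0.904 CPM of Tcrg-V6 in C and 0 to 2.23 CPM in D in liver. Hepatocyte markers fell in liver (4 of 5 tested, median log2 -5.98) and B cell markers in blood (3 of 8). NK cell markers fell in 3 of 5 in liver, Ncr1, Klrb1c and Klre1 (median over the 5 of -0.912), and in 2 of 5 in blood, Ncr1 and Eomes. The part of these markers in the differences was not tested.

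Genes that go with IL-17 producing gamma delta T cells were counted beside the segments, from a list of 15 drawn up with earlier results known. In liver, CXCR2i against PBS, 13 of the 15 were higher and 0 lower (median log2 3.61, against -0.00642 over all genes), among them Il17a, the cytokine itself (9.04 ± 0.91), and Il1r1, a receptor for IL-1 (4.98 ± 0.45). In blood 10 of 13 tested were higher and 0 lower (median 2.51), among them Il1r1 (4.09) and the IL-23 receptor Il23r (3.32). Within run set B, CXCR2i against aPD1 gave 11 of 15 higher in liver (median 4.31), with Il17a at 6.09, Il17f at 5.40 and the scavenger receptor gene Cd163l1 at 5.11. It gave 11 of 13 in blood (median 3.24). The combination against aPD1 gave 8 of 13 in blood (median 2.54) and 0 of 15 in liver (median 1.91). The medians over all genes in these 6 comparisons lay between -0.00823 and 0.0312. For CXCR2i against PBS, 8.05% of all genes were called higher in liver and 7.07% in blood. For CXCR2i against aPD1 the shares were 5.3% in liver and 1.43% in blood. For the combination against aPD1 they were 0.0% in liver and 0.203% in blood. Cd8a, the alpha chain of the CD8 coreceptor, fell under CXCR2i against aPD1 by 1.34 ± 0.36 in liver and by 0.85 ± 0.11 in blood. Of 10 cytotoxic effector genes, 6 fell in liver and 7 in blood in that comparison, among them Gzmk and Gzma, which code for granzymes. Of all genes 3.03% were lower in liver and 1.78% in blood there. Of the 5 CD3 and receptor complex genes tested 0 were called there at either site, and of 18 genes of proximal receptor signalling 3 fell at each site, Ubash3a and Fyn at both.

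Gamma chain transcripts took a larger share of receptor counts in liver T cells than in blood T cells of most animals. The TRG share of receptor counts was higher in liver in 34 of 36 animals, and both exceptions were among the 5 combination animals. Tcrg-C2 was higher in 35 animals, Trgv2 in 33, Tcrg-C1 in 31, Tcrg-V6 in 27 and Trdv4 in 27 (lower in 6). The TRB share was lower in liver in 34 animals, and the TRD share was higher in 24. By condition, the TRD share was higher in liver in 6 of 6 CXCR2i animals both within and outside the model and in 6 of 8 PBS animals, and lower in 6 of 6 untreated DEN ALIOS animals. The median TRG share went from 4.24% in blood to 10.9% in liver in PBS mice, from 7.43% to 19.2% in CXCR2i mice, from 6.23% to 15.4% in untreated DEN ALIOS mice and from 17.1% to 27.3% under CXCR2i in the model. Under the combination it was 16.4% in blood and 17.2% in liver.

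**Figure D3:**
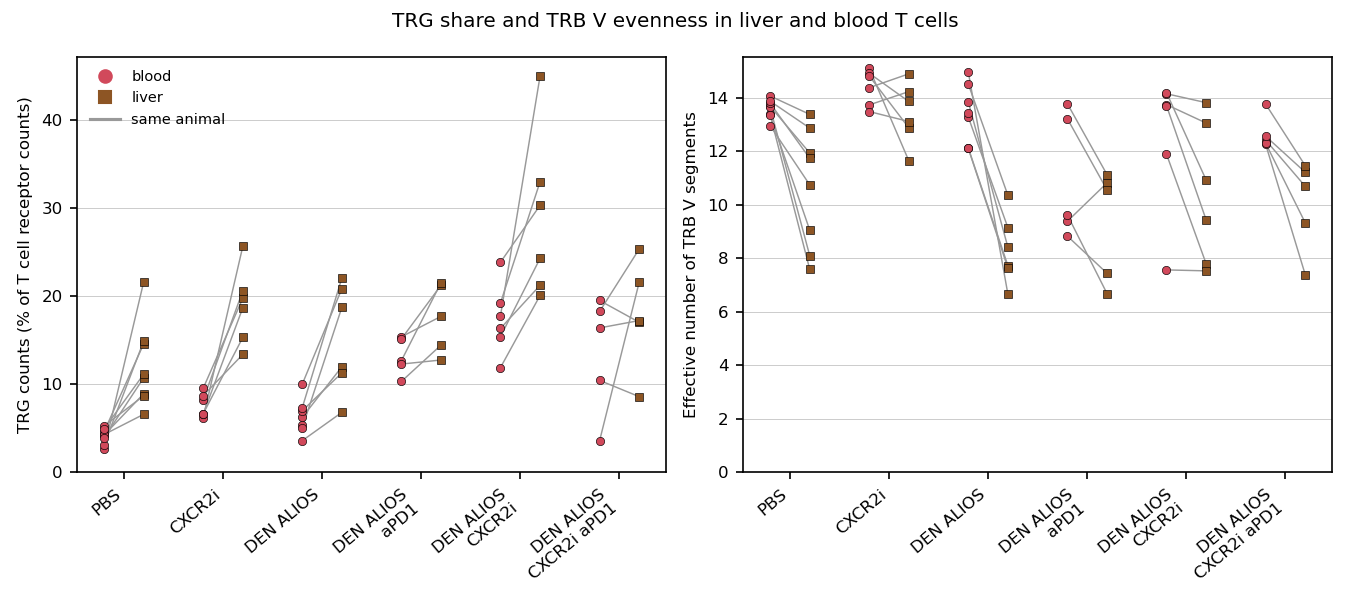
TRG share of T cell receptor counts (%) and effective number of TRB V segments in liver and blood T cells, with each of the 36 animals as a line between its 2 libraries, by condition. Lines rise from blood to liver for the TRG share in 34 animals and fall for the effective number in 33.

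With the animal as a block, 65 members were tested for liver against blood in each condition by edgeR. The share of tested members called lay below that of all genes in each condition. It was 13.8% in untreated DEN ALIOS and in DEN ALIOS CXCR2i, 3.08% under the combination and 1.54% under aPD1. Outside the model it was 10.8% in CXCR2i and 16.9% in PBS mice. Untreated DEN ALIOS gave 8 higher and 1 lower (33.0% of all genes called, 19.8% higher and 13.2% lower). They were mostly gamma genes outside the Tcrg-C1 cluster: Tcrg-C3 (4.00 ± 0.68), Tcrg-V3 (2.35 ± 0.71), Trgv2 (1.80 ± 0.29), Tcrg-C4 (1.77 ± 0.37), Tcrg-C2 (1.75 ± 0.28) and Tcrg-V1 (1.33 ± 0.50), together with Trac (0.52) and Trbc2 (0.37). The beta segment Trbv1 fell by 0.64. Tcrg-C3 was at 0.392 to 2.78 CPM in the 6 liver libraries, so its change rests on low counts. DEN ALIOS CXCR2i gave 8 higher and 1 lower (34.0% of all genes, 19.9% higher and 14.1% lower): Tcrg-V7, the segment of intestinal gamma delta T cells (2.19 ± 0.60), Trdv4 (1.80 ± 0.33), Tcrg-V6 (1.68 ± 0.36), Trav1 (1.56 ± 0.61), Tcrg-C1 (1.52 ± 0.28), Tcrg-C3, Tcrg-C2 and Trgv2, with Trbv13-1 lower (-0.96 ± 0.24). CXCR2i outside the model gave 7 higher and 0 lower (16.6% of all genes, 10.0% higher and 6.58% lower), led by Trdv4 (2.90 ± 0.34), Tcrg-V6 (2.34 ± 0.36), Tcrg-V5 (2.03 ± 0.56) and Tcrg-C1 (1.98 ± 0.30). PBS mice gave 9 higher and 2 lower (35.0% of all genes, 18.4% higher and 16.6% lower), with Tcrg-V7 (3.74 ± 1.12, at a median of 0 CPM in both sites), Tcrg-V6 (2.33 ± 0.75), Tcrg-V4 (1.97 ± 0.28), Trgv2 (1.82 ± 0.30) and Tcrg-C1 (1.77 ± 0.32) among those that rose. Trbc2 fell by 0.34 and Trav14d-3-dv8 by 3.14 there. The combination gave 2, Tcrg-C2 (1.02 ± 0.29) and Trac (0.54 ± 0.13), where 16.2% of all genes were called (8.88% higher and 7.31% lower), and aPD1 gave 1, Trac (0.47 ± 0.13), where 16.6% were (9.26% higher and 7.3% lower). Without the aPD1 animal of liver replicate 1 that count was 0, and without that of liver replicate 2 it was 2.

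For usage, delta V segments other than Trdv4 fell as shares of their locus in liver against blood under CXCR2i. In liver of these mice Trdv4 took most V counts of the locus, so shares of the others are lower where it is higher. The level of Trdv1 in CXCR2i mice outside the model was 0.782 to 2.33 CPM (median 1.04) in blood and 0.227 to 2.66 CPM (median 1.13) in liver, a log2 difference of -0.053 ± 0.51 that was not called. In CXCR2i mice outside the model Trdv1 fell by 2.35 ± 0.46, Trdv5 by 2.31 ± 0.51 and Trdv2-2 by 2.18 ± 0.55 (adjusted p = 0.00030, 0.0014 and 0.0043 by edgeR, with 16.6% of all genes called). In the model the same 3 fell by 1.90 ± 0.42, 2.16 ± 0.56 and 2.11 ± 0.59 (adjusted p = 0.00048, 0.0028 and 0.0048, 34.0%). In untreated DEN ALIOS mice Tcrg-V4 fell in usage by 1.53 ± 0.34 (adjusted p = 0.00070, 33.0%). The beta segments Trbv1, Trbv13-2 and Trbv2 fell in usage there by 0.82, 0.66 and 0.62.

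A test of the difference itself, liver against blood in DEN ALIOS against the same in PBS, called 4 of 65 members (6.15%, against 9.8% of all genes, 5.13% higher and 4.67% lower). The change of Trbc2 was larger in DEN ALIOS by 0.71 ± 0.16, that of Trac by 0.69 ± 0.16 and that of Trav14d-3-dv8 by 3.39 ± 0.89, and that of Tcrg-V4 was smaller by 1.80 ± 0.45 (adjusted p = 0.0055, 0.0055, 0.015 and 0.011 by edgeR). Trav14d-3-dv8 had a median of 0 CPM in PBS liver and 0.902 CPM in PBS blood, so its value rests on few counts. The combination against untreated gave 0 of 65 members and 0.0% of all genes, with 6 members at an unadjusted p under 0.05. Hepatocyte markers were higher in liver than in blood in DEN ALIOS (6 of 7 tested) and PBS (7 of 7), myeloid markers in 6 and 3 of 8, and platelet markers lower in 4 and 3 of 4, and their part in the differences between sites was not tested.

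Untreated DEN ALIOS was set against PBS with run set A on one side and run sets C and D on the other, so condition and run set cannot be told apart. In liver 13 of 38 members were called, 6 higher and 7 lower (34.2%, against 31.9% of all genes, 15.8% higher and 16.1% lower). Tcrg-C2 rose by 1.83 ± 0.34, Trgv2 by 1.30 ± 0.33, Trbc2 by 0.98 ± 0.14 and Trac by 0.96 ± 0.14. Trbv16 and Trbv14 rose by 1.21 and 1.11. Trdv4 fell by 4.02 ± 0.77, Tcrg-V4 by 2.45 ± 0.46, Tcrg-V6 by 1.87 ± 0.55, Trav19 by 1.85 ± 0.70, Tcrg-C1 by 1.63 ± 0.34, Trbc1 by 0.79 ± 0.20 and Trbv13-2 by 0.57 ± 0.21. Trdv4 had 4 counts in all in DEN ALIOS liver. In PBS liver it had 3 in run set C and 70 in D, of which 1 library held 45. Tcrg-V6 had 12 counts in DEN ALIOS liver and 2 and 38 in those run sets, so both falls rest on low counts. In a fit over 5 groups with run set as a term, 7 members were called and Trdv4 (2.04), Tcrg-V6 (3.70) and Trbv13-2 (2.03) turned direction. In blood 5 were higher and 1 lower of 38 (15.8%, against 23.6% of all genes, 12.6% higher and 10.9% lower): Tcrg-C2 (1.49 ± 0.26), Trgv2 (1.33 ± 0.22), Tcrg-C4 (0.64), Trac (0.31) and Trbc2 (0.31) rose and Tcrg-V4 fell by 0.74 ± 0.25. Without PBS replicates 1 and 2, 13 members were again called in liver, but Trav19 (-0.30, adjusted p = 0.73) and Trbv16 (adjusted p = 0.060) were not among them, and Trbc1 fell by 0.48. Erythroid markers rose beside them in 4 of 4 tested in blood (median log2 4.61) and in 3 of 3 in liver (8.22). B cell markers fell in 8 of 8 in blood (median -2.92), where platelet markers rose in 3 of 3 (median 2.1). Myeloid markers rose in 3 of 7 in liver, C1qb, C1qa and Cd68 (median over the 7 of 1.61), and of 5 NK cell markers 3 were higher and 2 lower at each site. Their part was not tested.

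The 2 beta constant genes, which are used interchangeably by alpha beta T cells, parted in this comparison. The ratio of Trbc1 to Trbc2 counts was 0.416 to 0.694 (median 0.494) in untreated DEN ALIOS liver and 0.831 to 3.33 (median 1.77) in PBS liver, with no overlap. The medians of the other 10 groups were 0.773 to 0.955. The genes differ in only part of their sequence, and the percentage of reads that aligned to more than 1 place differed between libraries, from 1.773% to 23.3%. Its part in the ratio was not tested.

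Beta V segments were used less evenly in liver than in blood. The effective number of TRB V segments, which is the inverse Simpson index of the V counts and falls when few segments dominate, was lower in liver in 33 of 36 animals, and in 31 of 36 with an index corrected for the number of V counts. The first held in 6 of 6 untreated, 6 of 6 CXCR2i and 5 of 5 combination animals of the model, 8 of 8 PBS animals (with only 62 and 18 V counts in the 2 shallow liver libraries), 4 of 5 aPD1 animals and 4 of 6 CXCR2i animals outside the model. With the corrected index the count was 6 of 8 in PBS animals, the 2 shallow ones turning, and the same in the other conditions. Untreated DEN ALIOS liver had the lowest median, 8.07 (range 6.65 to 10.4, n = 6), against 13.4 (12.1 to 15.0, n = 7) in blood, and the 2 ranges did not overlap. The medians in liver were 10.2 under CXCR2i, 10.7 under the combination, 10.6 under aPD1, 11.2 in PBS mice and 13.5 in CXCR2i mice outside the model. In blood they were 9.62 under aPD1 and 12.4 to 14.6 in the other groups. TRA, with fewer V counts per library, had a lower effective number in liver in 29 of 36 animals, or 27 of 34 without the 2 shallow ones.

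**Figure D4:**
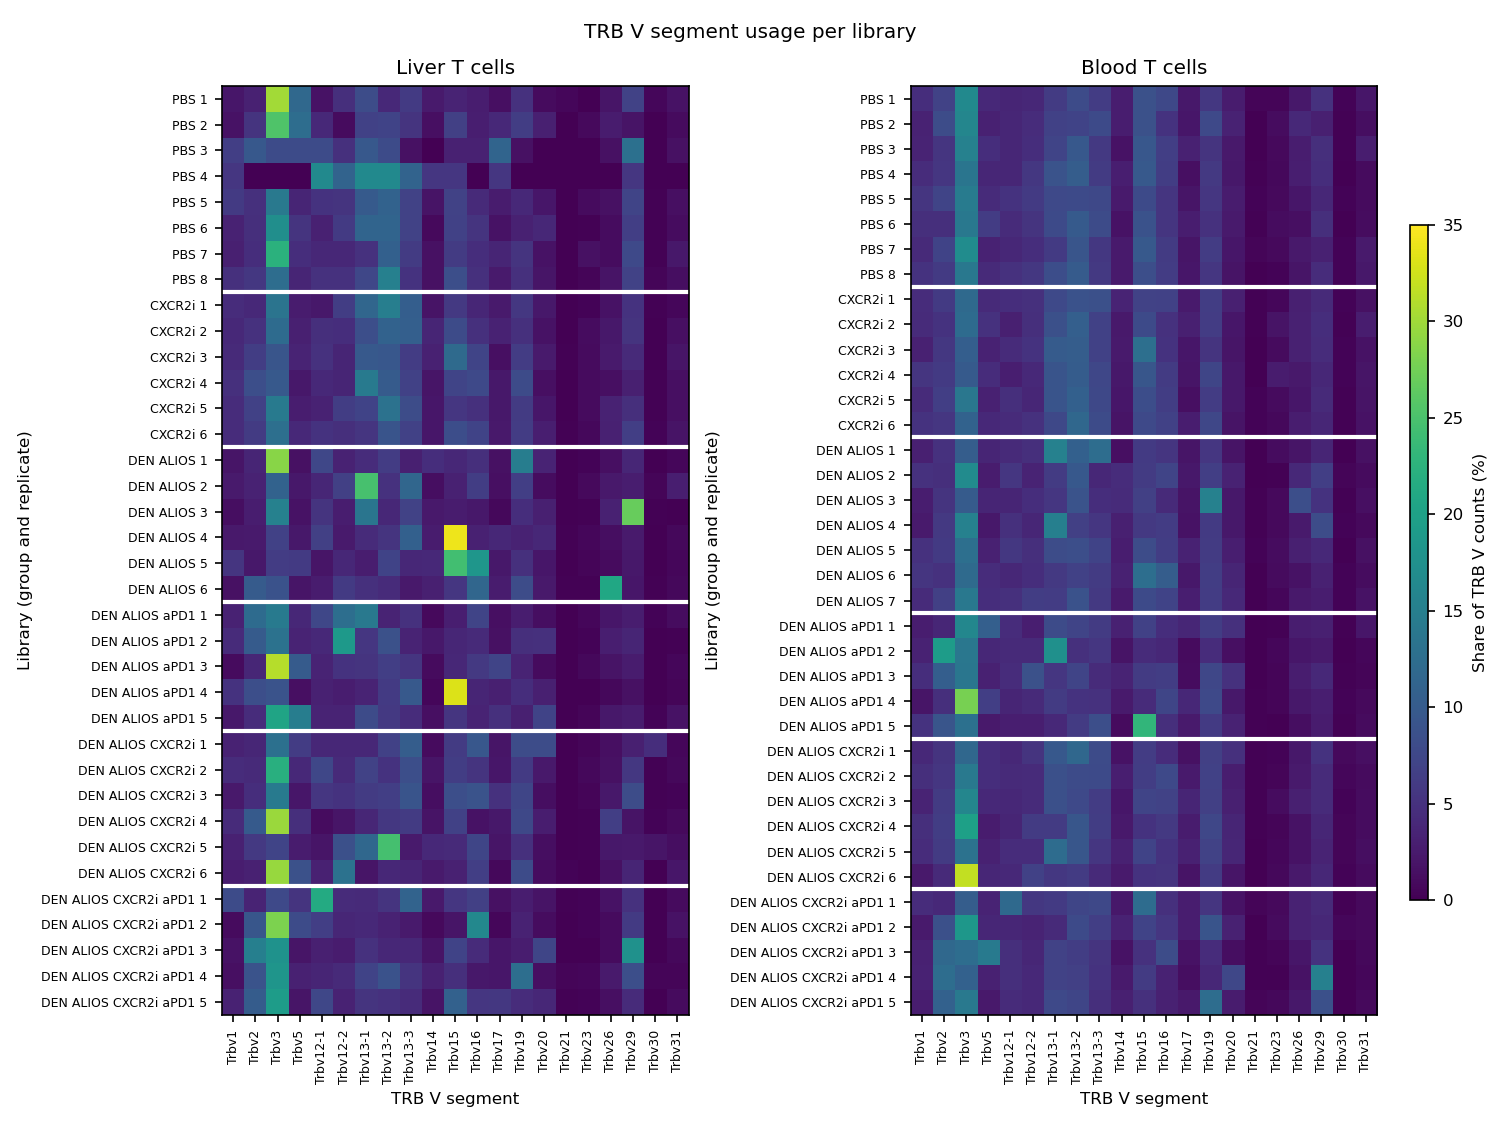
Share of TRB V counts (%) of each TRB V segment (columns) in each liver and blood T cell library (rows, by group and replicate). Trbv3 is bright across most libraries, while in untreated DEN ALIOS liver different segments lead, up to 34.0% for Trbv15 in replicate 4.

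Which segment led differed between animals. Trbv3 led in 26 of 37 blood libraries and in 21 of 36 liver libraries. In untreated DEN ALIOS liver 5 different segments led in the 6 libraries, shown here with 95% Wilson intervals, which cover counting error only. They were Trbv3 in replicate 1 (28.8% of V counts, 26.7 to 31.1), Trbv13-1 in replicate 2 (24.8%, 21.8 to 28.1), Trbv29 in replicate 3 (26.8%, 24.8 to 28.9), Trbv15 in replicates 4 (34.0%, 32.4 to 35.7) and 5 (24.4%, 22.7 to 26.2) and Trbv26 in replicate 6 (20.8%, 18.6 to 23.2). The group medians were 9.95% for Trbv3, 4.61% for Trbv13-1, 2.70% for Trbv29, 4.72% for Trbv15 and 1.93% for Trbv26. In blood of the same animals the shares were 10.3%, 6.12%, 8.16%, 8.09%, 12.6% and 2.46%, each below the liver value. These segments were picked as the highest of each liver library. Their height over the group median and over blood is in part fixed by that choice and was not tested. Over all 36 animals, the leading liver segment had a share in blood of the same animal above the median of the other animals of the group in 23, and above all of them in 10. In the model, the latter held in 3 of 5 aPD1, 2 of 6 untreated, 1 of 6 CXCR2i and 0 of 5 combination animals. Outside the model it held in 2 of 8 PBS and 2 of 6 CXCR2i animals. Each animal was compared with 4 to 7 others, so some lie highest by chance, and the counts were not tested.

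In several animals a high share was seen at both sites. Trbv15, whose sequence is given above, took 33.2% (31.4 to 35.1) of V counts in liver aPD1 replicate 4 and 23.0% (21.1 to 25.0) in blood of the same animal, blood replicate 5, against 4.29% to 6.72% in blood of the other 4 aPD1 animals. Trbv3 took 31.1% and 27.8% in liver aPD1 replicate 3 and its blood, and 29.6% and 31.8% in liver and blood of DEN ALIOS CXCR2i replicate 6, where its blood lay above the 19.9% of the next animal. The delta segment Trdv1 took 271 of 298 delta V counts (90.9%, 87.1 to 93.7) in liver aPD1 replicate 5 and 117 of 131 (89.3%, 82.9 to 93.5) in blood of that animal, blood replicate 1. Its level was 43.1 CPM there in liver and 19.9 CPM in blood, against 0.178 to 2.46 CPM and 0.423 to 1.75 CPM in the other 4 animals. Tcrg-V7 reached 25.2 CPM in liver of DEN ALIOS CXCR2i replicate 6 and 7.54 CPM in its blood, the highest values of their groups.

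The highest shares of alpha segments were those of single liver libraries. Trav2 took 38.2% (34.0 to 42.6) of alpha V counts in liver DEN ALIOS CXCR2i replicate 5, at a group median of 0.17%, and 7.74% (5.30 to 11.2) in its blood. Trav19 took 29.6% (26.5 to 32.8) in liver PBS replicate 2 and 4.80% in its blood, Trav14-1 29.1% (25.7 to 32.7) in liver aPD1 replicate 1 and 7.24% in its blood. In untreated DEN ALIOS liver, Trav2 took 24.1% (20.8 to 27.7) in replicate 4 and Trav8-1 20.6% (16.8 to 25.1) in replicate 1, with 1.52% and 1.23% in blood of those animals. These segments are named because they had the largest gaps over their group medians, so their height is a description and was not tested.

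Other genes of the receptor's pathway were counted from lists. Of 9 genes of naive T cells, 7 to 9 were lower in liver than in blood in each of the 6 conditions and 0 higher, where 6.58% to 16.6% of all genes were lower, among them Ccr7, a chemokine receptor that directs cells to lymph nodes. Of 10 genes induced through the receptor, 9 or 10 were higher and 0 lower, where 8.88% to 19.9% of all genes were higher, with Nr4a2 and Nr4a1, which answer to receptor signals, among the largest. In liver of untreated DEN ALIOS against PBS, 9 of 10 cytotoxic effector genes were higher (median log2 1.86), led by Gzmk, and 7 of 9 naive genes lower (-0.957), while the 5 CD3 and receptor complex genes tested had 0 calls (median 0.096). Of all genes 15.8% were higher and 16.1% lower there. Outside the model, CXCR2i against PBS gave 5 of 10 activation genes higher in liver, led by Nr4a1, where 8.05% of all genes were higher, and 0 of 18 proximal signalling genes called.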

How the data were processed

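RNA of sorted CD3+ T cells was sequenced as 73 libraries from liver and blood. The authors deposited raw counts per gene by Ensembl identifier. Per the submitters' processing notes, the tools were FastQC 0.11.8, Trim Galore 0.6.4, HISAT2 2.1.0 and HTSeq 0.11.2 with the genome GRCm38; the annotation release and the strand setting are not given in the sources used here. The 5 summary entries of HTSeq, 70.09% of all entries in the T cell libraries, entered neither library sizes nor tests, and the reads that aligned to more than 1 place were 1.773% to 23.3% of a library (median 14.37%). Symbols and sequences came from GENCODE M21. Groups and animals were taken from the labels. Run sets were formed from the code that opens the description, taken as a run code, with neighbouring codes joined in run sets A, B and D.

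Levels were tested on the deposited counts with edgeR 4.0.16 (R 4.3.3), by quasi-likelihood F tests with TMM factors, a filter on low counts (filterByExpr, minimum count 10, minimum total 15) and Benjamini-Hochberg adjustment over all genes, at an adjusted p of 0.05. Usage was tested in the same fits with all counts of a gene's locus, V and C, plus 0.5 as offset. Only the members were given this offset, and all other genes kept that of the level test. Treatments of the model were fitted with run set as a term, run set B was also fitted alone, and liver against blood had the animal as a block, since both libraries came from the same named animal. Deviations from group means correlated within animals at a mean of 0.159, against -0.0306 between animals, with 21 of 36 pairs above 0.1. The tests were checked on simulated counts without differences between animals or run sets. Those fits had no run set term and no animal block, so the models with these terms were not checked. Changes of 1 on the log2 scale were recovered in 30% to 58% and changes of 2 in 97% to 100%. Of the calls, 3.05% to 8.78% were false. The SE printed with a log2 difference by edgeR is its absolute size divided by the square root of the F statistic, so it restates the test. Effective numbers are the inverse Simpson index of V counts.

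Alternatives were RLE factors, TMM factors without antigen receptor genes, no filter, DESeq2 1.42.0, other terms and blocks, thinning to 300 TRB or 100 TRA V counts, and leaving out libraries. Those for the comparisons within run set B, the index corrected for the number of V counts and leaving out PBS liver replicates 1 and 2 were chosen after seeing the data. The members and lists were chosen with earlier results of these data known. The genes named are the constant genes, called members, the leading segments of each locus, the highest single-library shares and the leading called genes of each list, of which some are not reported here. Precision follows the depth: an interval or the limit of 3 counts for a count of 0 covers counting error only.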

Additional observations from a re-analysis of the deposited data

Results flagged for a closer look

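In groups of 4 to 10 libraries, 18 of 108 combinations of 9 measures and 12 groups had a highest or lowest library far from the others by Dixon's criterion. For normally distributed values chance exceeds it in about 1 in 20. CPM of few counts need not be so distributed and the measures are related, so the 18 cannot be set against that rate. Tcrg-V6 and Trdv4 stood apart together in liver T cells of CXCR2i replicate 4 (44.7 and 83.3 CPM) and of DEN ALIOS CXCR2i replicate 4 (163 and 269 CPM). Tcrg-V6 also stood apart in liver T cells of combination replicate 4 (21.3 CPM) and in blood of untreated DEN ALIOS replicate 1 (0.885 CPM), and Trdv4 in blood of untreated replicate 2 (0.546 CPM) and in liver of PBS replicate 5 (5.28 CPM).

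Trdv1 stood apart at both sites of 1 aPD1 animal, at 43.1 CPM in liver replicate 5 and 19.9 CPM in blood replicate 1, where the TRD share was 3.68% and 2.36%. It did so at lower levels in liver of combination replicate 1 (1.91 CPM) and blood of CXCR2i replicate 5 (2.33 CPM). Receptor counts of blood aPD1 replicate 5 were at 1113 CPM. The effective number of TRB V segments was 7.56 in blood of DEN ALIOS CXCR2i replicate 6 and 13.8 in blood of combination replicate 1. That of TRA V segments was 28.2 in blood of CXCR2i replicate 5.

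The change from blood to liver differed between DEN ALIOS and PBS in the edgeR test of that difference for Trbc2 (0.71), Trac (0.69), Trav14d-3-dv8 (3.39) and Tcrg-V4 (-1.80), on the log2 scale. Outside the T cell libraries, 1 liver neutrophil library of DEN ALIOS aPD1 held 365 CPM of receptor counts, where the group median was 4.28 CPM.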

How the results depend on the processing

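Members called in the alternatives are counted below without the share of all genes called in the same fits, which is not reported here. Treatments against untreated DEN ALIOS depended on the run set term. Without it Trdv4 in blood turned to 6.01 for the combination and 6.91 for CXCR2i on the log2 scale, and the members called were 3 for the combination, 6 for CXCR2i and 3 for aPD1 in blood and 5 for CXCR2i in liver, against 0 with it. In liver, Tcrg-V6 for the combination ran from -0.88 (without combination replicate 1) to 0.88 (without replicate 5), and Trdv4 from -2.66 (without replicate 5) to 3.22 (without replicate 1), none of them called. Leaving out 1 library gave 0 to 1 members there and 0 to 2 for CXCR2i in liver. DESeq2 called 1 for CXCR2i and 1 for aPD1 in blood, 2 for CXCR2i in liver, 1 for the combination against aPD1 in liver of run set B and 3 for liver against blood under aPD1. RLE factors gave 1 each for the combination and CXCR2i in liver against untreated, and TMM without receptor genes gave 1 for the combination.

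Without the filter, 2 members were called for the combination in blood of run set B, 13 for DEN ALIOS against PBS in blood, 4 and 7 for the differences between conditions of the combination and of PBS, and 5 and 9 for liver against blood under the combination and aPD1. With run set as a term over 5 groups, DEN ALIOS against PBS gave 3 calls in blood and 7 in liver, and in liver Tcrg-V6 was 3.70, Trbv13-2 2.03 and Trdv4 2.04. Leaving out 1 library gave 1 to 2 calls for the combination in blood of run set B, 5 to 8 for CXCR2i in liver of run set B and 0 to 2 for liver against blood under aPD1. Without the shallow libraries the last was 2. Thinned to a fixed depth, 29 of the 34 animals with enough V counts had fewer TRB V segments detected in liver than in blood and 5 had more. Unthinned, 17 of the same 34 had fewer, 2 had more and the rest were tied (19 of all 36 had fewer). The thinned number is an expected value, not a whole count, and breaks such ties. The cause of the other changes was not tested.

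With the replicate number as a block, 7 members were called for DEN ALIOS against PBS in liver, against 13. The numbers do not mark shared animals between these groups: same-numbered libraries correlated at a mean of 0.0148 in liver and 0.0196 in blood. With no replicate block for the animal, liver against blood gave 1 call under the combination, against 2, and changed no other count by over 1.5 times. Low counts limit the alpha V segments, Tcrg-C3, Tcrg-V7 and the delta segments, and run sets that coincide with groups limit every comparison with PBS or untreated DEN ALIOS.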
